A study of Mus musculus with 12 samples.

Results

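Regions enriched by an antibody against N1-methyladenosine (m1A) in striatal RNA of Tet1 knockout mice are described here. The authors called peaks in each of 3 knockout (KO) pull-downs against that pull-down's own input. Peaks of the 3 lists that shared at least 1 bp were merged, which gave 9907 regions, and the 2672 regions called in 2 or more of the 3 lists were retained (27.0%). They were thus chosen by the authors' peak calls, that is by enrichment over input past the q-value limit. The whole series, with its control lists added, held 13572 merged regions. The peak values of the regions are therefore a description, and no test was made on them. The KO group was not compared with the control group.

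The mice were adult males with both copies of Tet1 flanked by loxP sites (Tet1 fl/fl). In the KO group AAV-Cre-EGFP, a virus that carries the Cre recombinase, was injected stereotaxically into the caudate putamen, the dorsal part of the striatum, and the genotype label is Tet1 delta/delta. Control mice carried the same floxed alleles and received AAV-EGFP, and both groups were sampled 2 weeks after injection. Each group had 3 pull-down libraries and 3 inputs, 12 samples in all. Total RNA was heated for 4 min at 94 °C to fragment it, 90% was incubated with the m1A antibody for 3 h, and 10% served as input. Libraries were made with random hexamers after removal of ribosomal RNA. Cre acts only in transduced cells, whereas the RNA came from the whole dissected region, and fewer cells of a type cannot be told apart from less RNA per cell in such bulk tissue. The labels do not say whether the numbered libraries came from separate animals. Tet1 had 0 peaks in the KO lists, which says nothing of the deletion, since a transcript without a peak may be absent, unmodified or too lowly covered.

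m1A is adenosine with a methyl group on the Watson-Crick face of the base, so it carries a positive charge and blocks normal base pairing. It is best known as a structural mark of transfer RNA, written by the TRMT6/TRMT61A complex in the cytosol and by TRMT61B and TRMT10C in mitochondria, and it is removed by ALKBH family dioxygenases. Antibody mapping of messenger RNA has placed much of the signal near transcript starts, where some antibodies also bind the cap structure. TET1 belongs to another branch of the same dioxygenase superfamily and oxidises methylated cytosine in DNA.

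The lists of KO 1, KO 2 and KO 3 held 3782, 6947 and 3057 peaks. KO 2 stood apart from the other two. Its pull-down had 2508102 used tags, against 1235247 in KO 1 and 1336328 in KO 3, and its tags were shorter (52 bp, against 86 and 70 bp). Regions called in KO 2 alone numbered 4979, which is 50.3% of all merged regions, against 1358 in KO 1 alone and 898 in KO 3 alone. Retained regions took up 64.1% of the KO 1 peaks and 70.6% of the KO 3 peaks but 28.3% of the KO 2 peaks. The part of tag number and tag length in these differences was not tested. Without KO 2, 1831 regions were called in both remaining lists, against 1389 without KO 1 and 1647 without KO 3.

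Of the retained regions, 1093 were called in all 3 lists and 1579 in 2 of them. KO 1 and KO 3, the pair of like depth, shared 729 regions that KO 2 lacked, KO 1 and KO 2 shared 555 that KO 3 lacked, and KO 2 and KO 3 shared 295 that KO 1 lacked. On either side of the rule, regions in 2 lists had a median fold enrichment of 7.22, 7.71 and 7.51 in KO 1, KO 2 and KO 3, where fold enrichment is the authors' ratio of pull-down coverage over local background at the summit. Regions in 1 list had medians of 6.32, 7.05 and 7.16. The difference between the sides was thus smallest in KO 3 and largest in KO 1. Absence from a list means that no peak passed the caller's limit in that library, not that the RNA carried no m1A.

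**Figure D1:**
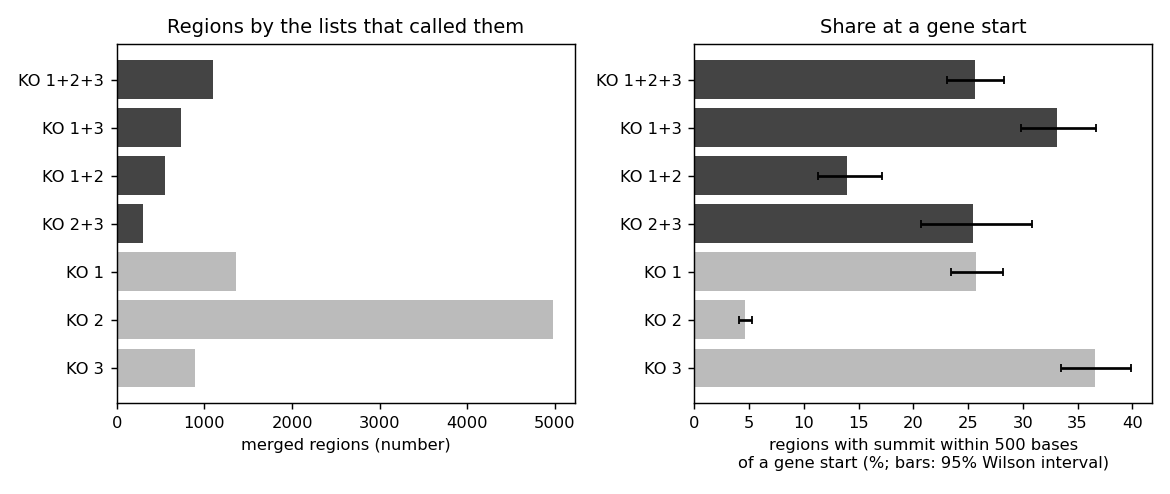
Merged regions by the KO lists that called them (left, number of regions) and the percentage of them with a summit within 500 bases of a RefSeq gene start (right, with 95% Wilson intervals that cover counting error only); dark bars are retained regions and light bars are regions of 1 list. KO 2 alone has the most regions (4979) and the lowest share at a gene start (4.63%).

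The sequences at transcript starts are shown first. Summits were most dense from 50 to 249 bases after a start, which the sequence window of that start does not reach. In 70 retained regions the summit of at least 2 lists fell inside a window of 250 bases before to 50 bases after a RefSeq gene start. Of those with the highest rank of fold enrichment, 5 follow as 30 bases each, 5′ to 3′ on the strand of the gene whose start defines the window (RefSeq, GRCm38.p6), with the KO 1 summit base in capitals.
Stxbp4 window, chr11:90638323-90638352, minus strand: tcccgaggcgtctcaGaccccgctccgcgc
Ankib1 window, chr5:3803329-3803358, minus strand: ccccaacttcctgtgGcaggaagcccctgg
Gpx4 window, chr10:80053937-80053966, plus strand: gggctctgacctggtCacgcgccctgcccg
Cox20 window, chr1:178318996-178319025, plus strand: ggttggaaaacagtgTggccggttccatgg
Ndor1 window, chr2:25255585-25255614, minus strand: ccgcagacctggcgaCcgcctgctgccgcc

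In 3 of these 5 the window belongs to a gene that runs the opposite way from the gene holding the summit. The summit before the start of Stxbp4 lay 153 bases into Cox11, which encodes a copper chaperone of cytochrome c oxidase, and its fold enrichment was 16.2, 15.3 and 25.4 in KO 1, KO 2 and KO 3. The summit before Ankib1 lay 162 bases into Krit1, a cell junction protein, with 20.5, 10.2 and 26.0. Across from Ndor1 lay Tmem203, called in KO 1 and KO 3 at 13.3 in both. The peaks carry no strand, so which of the paired transcripts was bound is not known. Gpx4 is a glutathione peroxidase that reduces lipid peroxides, and Cox20 is another assembly factor of cytochrome c oxidase. Their KO 1 summits lay before the nearest listed RefSeq start, at -59 in Gpx4 and -142 in Cox20. Summits of at least 2 lists still lay inside the RefSeq span of each gene. Gpx4 had fold enrichment 15.9, 11.2 and 18.5, and Cox20 was called in KO 1 (12.9) and KO 3 (14.7). The summit base was G, G, C, T and C in order. A summit is the base of highest coverage in a fragment pileup and is not the modified base.

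A second set shows the transcribed side. It was defined after the values were seen, as regions called in all 3 lists that cover bases 20 to 49 after a start and have their summits 50 to 500 bases after it. There were 36, and the 6 highest by fold enrichment rank follow, 5′ to 3′ on the gene's strand (RefSeq, GRCm38.p6), with every G and C in capitals to show base composition.
Adam10, chr9:70679002-70679031, plus strand: GGGaGGaaGGaaGaGGCCGaGGGGGaGGGa
Tmem178, chr17:80944652-80944681, plus strand: GGCGaGCCCaCCGGCGGCGGCtGCtGGCCG
Dbnl, chr11:5788503-5788532, plus strand: CaCtGGaGGCCGGCaGaaaGCtGaaGCtGC
Mlec, chr5:115158127-115158156, minus strand: CCCtGaGaGCGaCatGtCCCGGGttGCCGa
Hexim1, chr11:103116345-103116374, plus strand: GaGGaGaaCtGaGCGGaGCatCGaGCCaGa
Krit1, chr5:3803201-3803230, plus strand: GaGCtGaGGCCtttGGGaGCCCGaaGCtGG

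The share of G and C in these stretches ran from 60% in Hexim1 to 86.7% in Tmem178. Adam10, a membrane protease that sheds cell surface proteins, had fold enrichment 17.4, 22.3 and 19.5 in KO 1, KO 2 and KO 3. Tmem178, an endoplasmic reticulum protein, had 20.6, 15 and 23.5, and Mlec, a lectin of the endoplasmic reticulum, had 14.7, 12.6 and 25.2. Dbnl, a drebrin-like actin-binding protein, had 24.6, 13.1 and 17.2.

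Genes with a region just after the start and genes with regions elsewhere only had the same median base composition at the start. Of 1746 protein-coding genes with a retained region on the nuclear chromosomes other than 18, 1407 had a start in the table used. In 579 of these a retained region had its summits within the 500 bases after the gene's own start. Their median share of G and C in the 50 bases after the start was 68.0%. In the other 828, with retained regions elsewhere only, which includes before the start, it was also 68.0%. Over all 17491 protein-coding genes in the table it was 60%. The letters GTTCNA, found in the T-loop of transfer RNA around the m1A site, were searched on both strands of the 300-base window. They stood in 24.9% of the first group, 20.7% of the second and 28.8% of all genes, where a match is only a run of letters.

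Of the retained regions' summits, 25%, 22.4% and 28.0% lay within 500 bases of a listed gene start in KO 1, KO 2 and KO 3. The mean was 25.1 ± 2.79% (SD, n = 3 lists), and starts that the table used lacks were not counted. Without KO 2 the mean over the 2 remaining lists was 28.3%. Most of this lay on the transcribed side, at 21.9%, 19.6% and 24.2% of all summits in KO 1, KO 2 and KO 3. Between 50 and 249 bases after the start, summits had a density of 7.11%, 5.84% and 7.96% of all summits per 100 bases. In the 250 bases before the start the density was 0.780%, 0.746% and 0.935%, and in the first 50 bases after it was 0.867%, 0.746% and 0.585%. The summits within 500 bases lay at a median distance of 199, 202 and 197 bases. The modelled fragment lengths were 163, 166 and 165 bp, so a summit cannot place a modified base more finely than that.

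**Figure D2:**
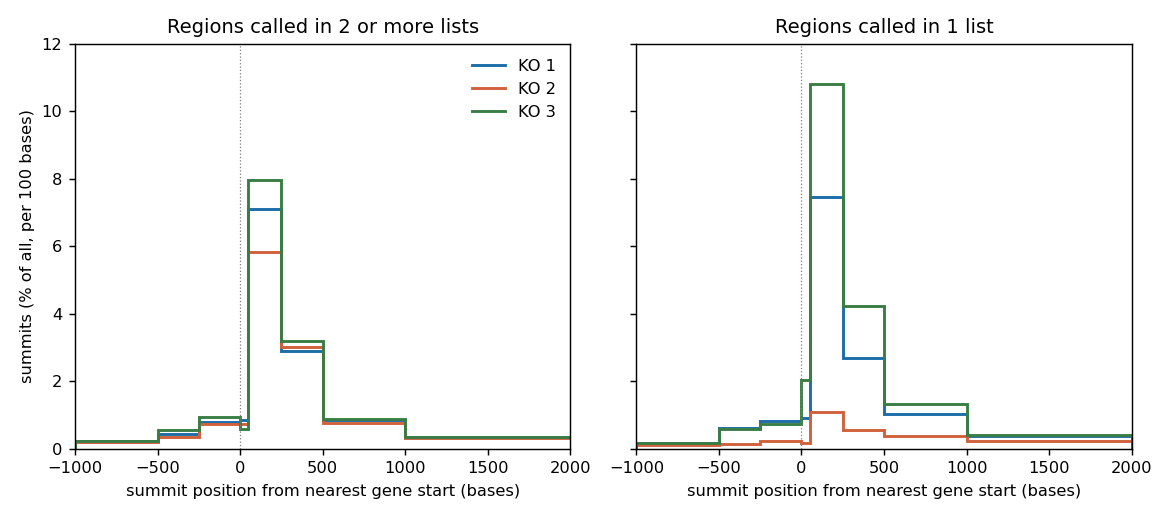
Density of peak summits (percent of all summits of the list per 100 bases) by position from the nearest RefSeq gene start, with positive positions in the direction of transcription, for retained regions (left) and regions of 1 list (right); each line is 1 KO list. In retained regions all 3 lines are highest from 50 to 249 bases after the start (7.11%, 5.84% and 7.96%), and in regions of 1 list the KO 2 line reaches 1.10% there.

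The lists differed in how retained regions compared with regions of 1 list. Regions of 1 list had a share of 25.7% in KO 1 and 36.6% in KO 3, both above that list's retained regions, but 4.63% in KO 2 (Wilson interval 4.07 to 5.26%). The mean difference, retained minus 1 list, was 2.79 ± 13.6 percentage points (SD, n = 3), and the lists differed in its sign. By pattern, 33.1% of regions shared by KO 1 and KO 3 alone lay at a start, against 25.6% of those in all 3 lists and 13.9% of those shared by KO 1 and KO 2 alone. In KO 2 the share was as low among its strongest peaks. Its 3057 peaks of highest significance had 10.1% at a start, its whole list 9.60%, and the equally long list of KO 3 had 30.3%.

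Within the regions called in all 3 lists, KO 2 also gave lower fold enrichment at starts. In the 270 such regions within 500 bases of a start, the median log2 ratio of KO 2 over KO 1 was -0.35, and KO 2 was the higher in 25.2%. In the 785 such regions elsewhere the median was -0.11 and KO 2 was the higher in 45.4%. KO 3 over KO 1 had medians of -0.02 at starts and -0.08 elsewhere. Of the regions called in KO 2 alone, 69.7% lay over 10 kb from any listed start, against 45.7% for KO 1 alone and 39.2% for KO 3 alone. A region at a start that the table used lacks was counted as elsewhere. These ratios set the authors' values of different lists side by side, and no replicate error applies to them.

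Position along the gene was measured only for summits in a single protein-coding gene with a listed start. These were 1591, 1299 and 1409 retained summits in KO 1, KO 2 and KO 3. The first 10% of the span held 35.8%, 32.6% and 39.9% of these summits. The last 10% held 10.9%, 11.5% and 10.2%, and no 10% between them held more than 10.4%. In regions of KO 2 alone the first 10% of the span held 13.8% and the last 15.2%. Regions at starts were about as often in all 3 lists (41.3% of 654) as regions elsewhere (40.5% of 1937). They were shorter, with a median of 258 bp against 299 bp.

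Retained regions had a median length of 285.5 bp, from 165 to 6191 bp, and 357 of them were over 500 bp long. Their median fold enrichment was 7.79, 7.86 and 7.84 in KO 1, KO 2 and KO 3, with upper quartiles of 10.4, 11.0 and 10.4. The highest values were 81.2, 46.1 and 70.4. Median pileup, the tag coverage at the summit, was 21 in KO 1, 29 in KO 2 and 23 in KO 3. Summits of a region in 2 lists lay close together, at a median of 16 to 18 bp for the 3 pairs of lists.

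The fold enrichment of the regions was more alike between KO 1 and KO 3 than between either and KO 2. Over 1822 shared regions the Pearson correlation of log2 fold enrichment was 0.72 for KO 1 and KO 3. It was 0.49 for KO 1 and KO 2 (1648 regions) and 0.49 for KO 2 and KO 3 (1388 regions). In the first pair 5.93% of the regions differed by more than 2-fold, and in the others 17.7% and 18.2%. Pileup correlated more closely, at 0.92, 0.80 and 0.77 in the same order. Regions are not replicates, all had to pass a threshold in both lists, and regions of one transcript share its abundance.

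**Figure D3:**
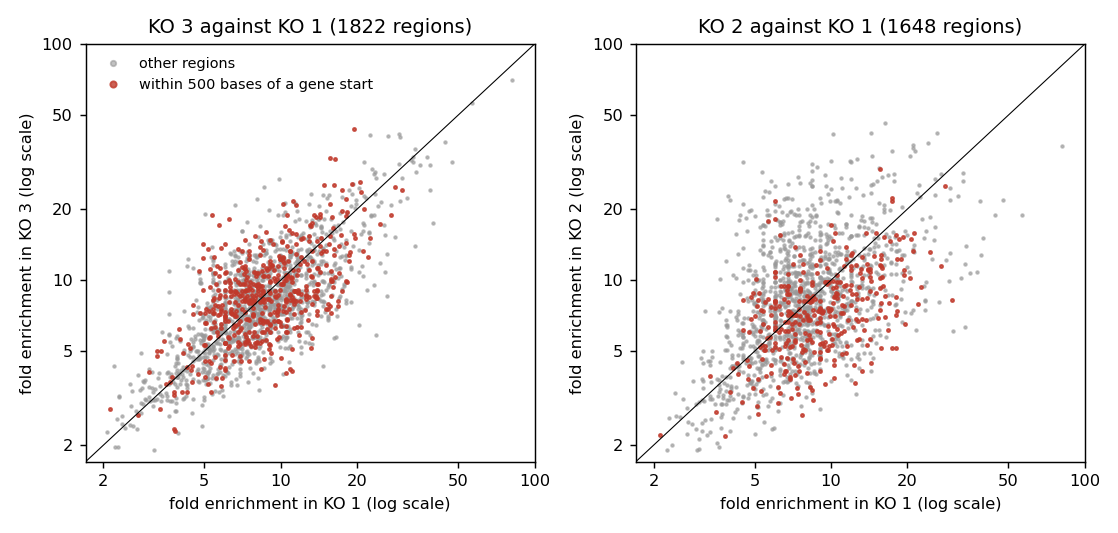
Authors' fold enrichment of each shared region in KO 3 (left, 1822 regions) and KO 2 (right, 1648 regions) against KO 1, on log axes with the line of equality; red points lie within 500 bases of a gene start. The KO 3 points lie close to the line, and in the KO 2 panel most red points lie below it.

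By mean rank of fold enrichment, Cdh4, which encodes R-cadherin, a cell adhesion protein, came first of the regions called in all 3 lists. Its region of 736 bp at chr2:179738443-179739178 had fold enrichment 81.2 in KO 1, 37.1 in KO 2 and 70.4 in KO 3, with pileups of 89, 45 and 116. All 3 lists put it among their steepest peaks, and KO 2 gave the lowest value. Arfgef3, of the ARF guanine exchange factor family, had 56.6, 18.9 and 56.4 at chr10:18705747-18706406. Disc1, a neuronal scaffold protein, had 44.2, 18.9 and 38.3 at chr8:125104483-125105026. In each of these 3 genes KO 1 and KO 3 lay closer to each other than to KO 2, which was the lowest.

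Dnajc3, a co-chaperone of the endoplasmic reticulum, had 33.2, 26.3 and 33.1 in KO 1, KO 2 and KO 3 over a region of 2052 bp. Mgmt, which repairs alkylated guanine in DNA, had 33.0, 28.4 and 31.6. Virma, the large scaffold subunit of the m6A writer complex, had 29.3, 24.6 and 41.7 at chr4:11531751-11532406. The 3 lists differed by less than 2-fold in each of these. Bcr, a regulator of small GTPases, had 38.6, 21.6 and 30.7.

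Ctbp1, a transcriptional co-repressor, was the single one of the 15 first-ranked regions that lay within 500 bases of a listed gene start. Its summits stood 225, 225 and 222 bases after the start, with fold enrichment 28.1, 25 and 24.8 (chr5:33274632-33274920). The nearest of the other 14 to any start in the table used was Snph, 7517, 7438 and 7478 bases after one. That table holds no start for Cdh4, Virma, Cacng4 and Washc5, whose distance from their own start was thus not measured.

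A further group was highest in KO 2. Cacng4, an auxiliary subunit of AMPA receptors, had 21.3, 35.2 and 22.7 in KO 1, KO 2 and KO 3. Afdn, the junction protein afadin, had 24.1, 38.1 and 20.6, and Tdrd3, a Tudor-domain protein that reads methylated arginine, had 20.4, 33.6 and 24.6. Snph (syntaphilin, which anchors axonal mitochondria) had 27.1, 28.2 and 20.7, and Washc5, of the WASH complex on endosomes, had 25.6, 26.8 and 17.1. Lrrfip2 and Denn2b completed the 15, with 29.4, 21.9 and 21.6 and with 22.8, 18.2 and 29.5.

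**Figure D4:**
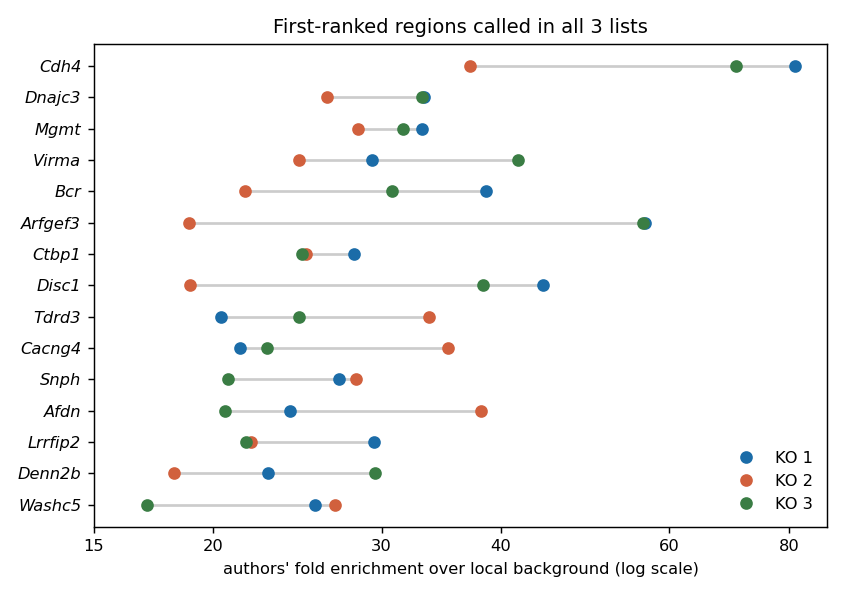
Authors' fold enrichment over local background (log axis) of the 15 first-ranked regions called in all 3 lists, with 1 point per KO list and a grey line from the lowest to the highest. Cdh4 spans 37.1 to 81.2 and Ctbp1 spans 24.8 to 28.1.

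Coverage and steepness picked out different transcripts. The highest pileup belonged to a region of 6191 bp in no annotated gene, chr17:13585502-13591692, with 281, 288 and 269 tags in KO 1, KO 2 and KO 3 and fold enrichment of 19.3, 12.8 and 25.5. A second region in no gene, chr17:13654477-13655290, had pileups of 238, 262 and 210 and fold enrichment of 17.6, 16.0 and 17.7. Both were high on each scale. Rn7s1 and Rn7s2, copies of the RNA of the signal recognition particle, had pileups from 259 to 272 but fold enrichment from 2.60 to 4.25. Malat1, an abundant nuclear long non-coding RNA, had 3 regions with pileups from 179 to 282 and fold enrichment from 1.99 to 4.74. Sik3, a salt-inducible kinase, had 189, 271 and 204 with fold enrichment 10.8, 9.40 and 9.11, in a region that also lies in Gm46110.

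Most of the broadest regions were steeper in KO 2. The region of 2431 bp in Ccdc191 had fold enrichment 9.02, 22.3 and 9.43 in KO 1, KO 2 and KO 3. The region of 2248 bp in Dip2a had 5.59, 19.9 and 6.02, that of 2394 bp in Fhit had 11.4, 17.2 and 11.8, and that of 2252 bp in Ankfy1 and Gm46287 had 14.4, 25.3 and 16.7. KO 2 was the highest in these 4 and the lowest in the remaining 2 of the 6 broadest, Dnajc3 and the unannotated region on chromosome 17.

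Of the 221 retained regions in no annotated gene, the highest by fold enrichment was chr13:68090793-68091240, with 22.5 in KO 1 and 41.3 in KO 3 and no call in KO 2. The next were chr4:122213238-122213507 (22.6 and 18.8) and chr6:18847319-18847714 (22.6 and 18.7), again in KO 1 and KO 3 alone. The regions chr19:27092372-27093189 and chr8:72234400-72235382 were called in all 3 lists. They had 22.3, 22.4 and 16.1, and 34.1, 13.9 and 28.8.

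Protein-coding gene spans held 2327 retained regions, a mean of 87.0 ± 0.585% (SD, n = 3 lists), and 80 more lay in long non-coding RNA genes but in no protein-coding gene. With regions that also lie in protein-coding genes counted, long non-coding RNA genes held 181 regions, in 149 genes. In regions of 1 list the protein-coding share was 87.2 ± 1.62%, a difference smaller than the spread between lists. A gene was counted when its RefSeq span held the summit in at least 2 of the lists that called the region. By this rule 1998 genes had a retained region, among them 1794 protein-coding genes, which is 8.19% of the 21896 in the table. Of all 49993 genes in the table it is 4.00%, and 3.70% of protein-coding genes had a region in all 3 lists. Without KO 2, 1443 genes had a region in both other lists, and 5.91% of protein-coding genes had a region. Genes with a retained region had a median span of 41.4 kb, against 17.1 kb over all genes. Exons were not in the table used, so a summit in a span may lie in an exon, an intron or an overlapping transcript.

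A single region was found in 1544 genes, and 110 genes had 3 or more. Rbfox1, a neuronal splicing regulator with a span of 1528 kb, had the most, with 9 regions of which 2 were in all 3 lists. Its steepest region, chr16:7012099-7012544, had fold enrichment 17.7, 26.3 and 9.47 in KO 1, KO 2 and KO 3. Atp2b2, a plasma membrane calcium pump, had 8 regions, 5 of them in all 3 lists, and the steepest had 25.8, 22.9 and 10.8. Agap1, an ARF GTPase-activating protein, and Ulk4, a kinase-like protein, had 6 each over 440 and 322 kb.

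Ppp1r9b, which encodes spinophilin, a scaffold for protein phosphatase 1 in dendritic spines, also had 6 regions, but within 15.7 kb. The 4 of them called in all 3 lists had fold enrichment of 3.32 to 9.22 in KO 1, 3.14 to 5.63 in KO 2 and 3.28 to 4.53 in KO 3. They were thus mostly below the median of retained regions in steepness. Lrp1 (a lipoprotein receptor), Meg3 (an imprinted long non-coding RNA) and Myh10 (a non-muscle myosin) had 5 regions each. Another 6 genes also had 5, of which Snrnp70, the U1 snRNP protein, was chosen after its values were seen because all 5 of its regions were in all 3 lists.

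Gene groups are described by how many of their genes had a retained region, beside the 8.19% of all protein-coding genes. The groups were chosen with earlier results of these data known, and the table includes genes that the striatum does not transcribe. Of the 25 groups, 24 lay above that percentage, and neither transcript abundance nor gene span was taken into account. Values given for a gene are those of its first region by mean rank of fold enrichment, and the lists named are those that called that region, unless a further region is mentioned. Where leaving out a list, or asking for a fold enrichment of at least 4, changed the count of a group by over 1.5 times, the changed count is given. The share over all protein-coding genes fell too, to 4.64%, 5.91% and 5.35% without KO 1, KO 2 and KO 3. It was 7.72% at a fold enrichment of at least 4.

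Of 26 genes of the postsynaptic scaffold, 16 (61.5%) had a retained region, 11 of them in all 3 lists, and 13, 14 and 12 were counted without KO 1, KO 2 and KO 3. The median span of these genes was 74.9 kb. Dlgap2, a partner of PSD-95, had fold enrichment 11.8, 22.4 and 18.1 in KO 1, KO 2 and KO 3. Nlgn1, the adhesion protein neuroligin, had 14.8, 13.1 and 10.7, and Homer1, which links glutamate receptors to the scaffold, had 10.6, 8.43 and 10.5 with summits 136, 106 and 143 bases after its start. The first region of Shank3, a master scaffold protein, was called in KO 1 (8.36) and KO 3 (14.7), again close to a start, and a second in all 3 lists (7.94, 8.67 and 5.72). Anks1b had 4 regions, of which the first was called in KO 1 (9.14) and KO 2 (12.6) and another in all 3 lists at 9.03, 2.85 and 4.46. Of the 16 genes, 4 had a region within 500 bases of a listed start.

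Presynaptic release genes had 15 of 34, 10 in all 3 lists. Unc13a, which primes vesicles for fusion, had fold enrichment 22.2, 25.3 and 14.3, and Bsn, the active zone protein bassoon, had 9.11, 10.2 and 14.7. Syp, a vesicle membrane protein, had a region called in KO 1 (12.7) and KO 3 (15) and a weaker one in all 3 lists (3.06, 4.68 and 3.07). Nrxn3, a neurexin, had a region in KO 2 (15.7) and KO 3 (8.29) and another in KO 1 (5.09) and KO 2 (2.94).

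Voltage-gated channels had 18 of 36, 10 in all 3 lists, and 12, 13 and 14 were counted without KO 1, KO 2 and KO 3. Kcnh1, a potassium channel, was called in KO 2 (28.6) and KO 3 (13). Scn8a, a sodium channel, had a region in the same lists (11.3 and 7.91) and another in all 3, at 7.40, 20 and 5.37. KO 2 gave the highest value in each of these regions. Kcnq5, a potassium channel, had a region in KO 1 (8.62) and KO 2 (8.85) and another in all 3 lists at 5.51, 23.9 and 8.75. The first region of Kcnd2, also a potassium channel, was called in KO 1 (12.9) and KO 3 (7.16).

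Glutamate receptors had 7 of 23 (4 without KO 1) and GABA receptors and transport 6 of 21. Grik2, a kainate receptor subunit, had 9.45, 11.7 and 7.54 in KO 1, KO 2 and KO 3. Grm7, a presynaptic metabotropic receptor, had 5.58, 18.9 and 8.27. The first of 4 regions of Grin2b, a subunit of NMDA receptors, was called in KO 1 (6.02) and KO 2 (25). KO 2 gave the highest value in these 3 regions. The other Grin2b regions had 10.4 and 5.02 in KO 1 and KO 2, and 5.65, 5.05 and 5.40, and 3.89, 5.76 and 5.82, in all 3 lists. KO 2 did not call Grik5 (13.9 and 8.38 in KO 1 and KO 3) or Grm4 (9.62 and 9.63). Gad1, which makes GABA, was called in KO 1 (6.72) and KO 2 (4.69) at 185 and 172 bases after its start. Gabbr1, a subunit of the metabotropic GABA receptor, had 6.23, 5.10 and 9.99 in KO 1, KO 2 and KO 3.

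Dopamine and cAMP signalling, the pathway that medium spiny neurons use to read dopamine, had 12 of 28, 9 of them in all 3 lists, and 11, 10 and 9 were counted without KO 1, KO 2 and KO 3. Pde10a, the phosphodiesterase of striatal projection neurons, had the steepest region, chr17:8628739-8629099, with 21.0, 36.1 and 16.1 and pileups of 34, 122 and 30, and 4 retained regions in all. Gng7, the G protein gamma subunit of the striatal receptor complex, had 11.6, 11.9 and 12.1. Gnb1, a G protein beta subunit, had 12.5, 6.69 and 10.2. Rgs7bp, an anchor of RGS proteins, had a region in KO 1 (10.6) and KO 3 (14) and another in all 3 lists at 15.5, 6.15 and 22.9. Pde7b was called in KO 2 (17.2) and KO 3 (7.32). By contrast the group of striatal peptides and transcription factors had 1 of 16, Foxp1, called in KO 2 (10.5) and KO 3 (7.26) and so not counted without either of them.

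Neuronal RNA-binding proteins had 15 of 26, 9 in all 3 lists. Nova1, a splicing regulator, had nearly equal values of 16.4, 15.7 and 16.2 with pileups of 130, 158 and 90. Its relative Nova2 was called in KO 1 (8.02) and KO 3 (22.1), and Mbnl1, of the muscleblind family, in the same lists (9.38 and 12.0). Rbfox3, which encodes the neuronal marker NeuN, had a region in KO 2 (18.8) and KO 3 (8.59) and another in all 3 lists (6.32, 10.0 and 9.80).

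Of microtubule proteins, neurofilaments and motors 16 of 27 had a region. Nefh, the heavy neurofilament subunit, had 21.2, 13.2 and 17.2 in KO 1, KO 2 and KO 3. Dctn1, a dynactin subunit, had 10.8, 7.01 and 12.1. KO 2 was the lowest in both. The first regions of the microtubule proteins Map6 (18 and 9.85) and Map4 (9.93 and 12.3) were called in KO 1 and KO 3, and Map6 had another in KO 1 (8.27) and KO 2 (5.90). Kif5c, a kinesin motor, had a region in KO 1 (9.77) and KO 2 (10.8) and another in KO 1 (4.99) and KO 3 (5.30).

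Of actin, tubulin and spectrin genes 13 of 22 had a region (8 without KO 1). Actg1, cytoplasmic gamma actin, had 11.5, 7.91 and 10.0 in KO 1, KO 2 and KO 3. Sptbn4, a spectrin of the axon initial segment, had 13.1, 9.57 and 12.5 and 5 retained regions. Ank3, the ankyrin that holds it there, was called in KO 1 (11.8) and KO 2 (32.0). Arpc2, of the complex that branches actin, had 8.68 in KO 1 and 8.43 in KO 3. Sptan1, a spectrin, had 6.15 in KO 2 and 12.0 in KO 3.

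**Figure D5:**
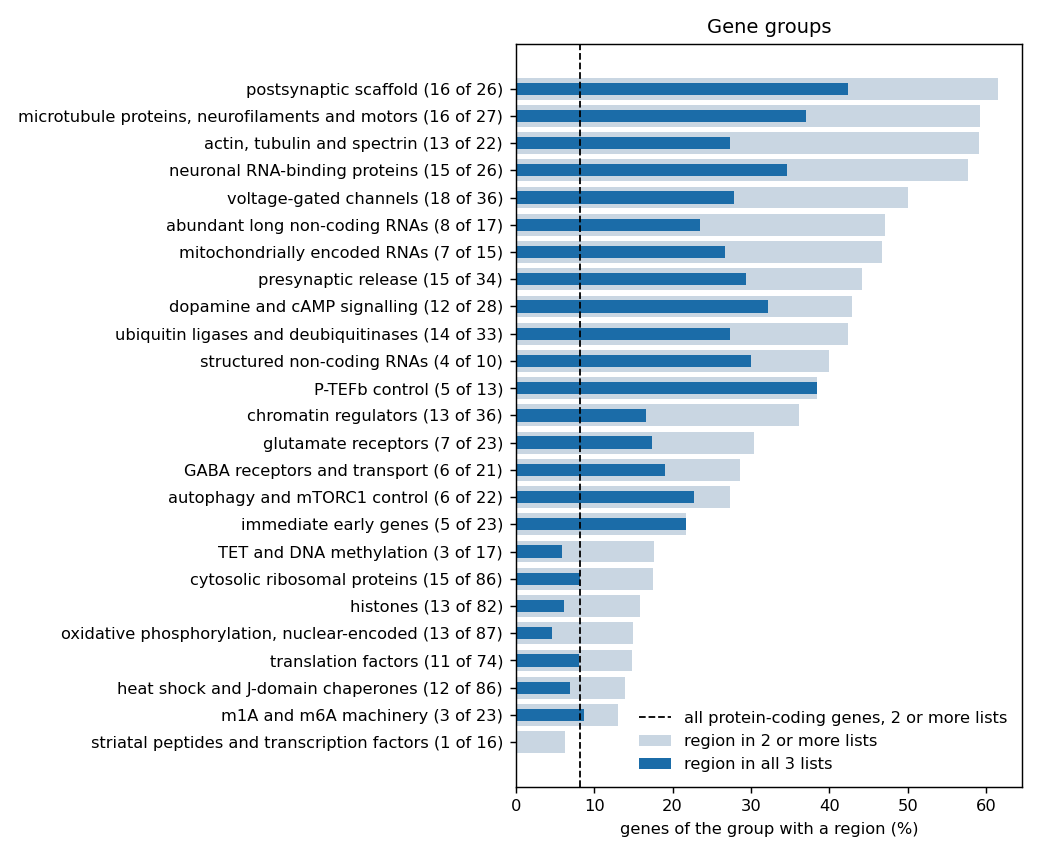
Percentage of the genes of each group with a region in 2 or more KO lists (light bars, counts in the labels) and in all 3 lists (dark bars), with the 8.19% of all protein-coding genes as a dashed line. Postsynaptic scaffold genes have the highest percentage (16 of 26), and striatal peptides and transcription factors (1 of 16) lie below the line.

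Cytosolic ribosomal proteins had 15 of 86, 9 of them with a region within 500 bases of a start, and 7 genes were counted without KO 1. Rps16 had fold enrichment 16.2 in KO 1 and 12.7 in KO 3, and Rps15 had 13.8 and 11.2. KO 2 called neither of these regions, but it called a second region of each gene (4.71 in Rps16, 8.04 in Rps15). Rpl13a had 9.87, 7.03 and 12.7 in all 3 lists, and Fau had 12.0 in KO 1 and 8.76 in KO 2 and a second region in all 3 lists (4.85, 4.68 and 5.90).

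Nuclear-encoded genes of oxidative phosphorylation had 13 of 87, of which 4 were in all 3 lists, and 5, 12 and 4 were counted without KO 1, KO 2 and KO 3. The first-ranked region of these genes was called in KO 1 for 12 of them and in KO 3 for 13, but in KO 2 for 3. Ndufb7 of complex I had 13.2 and 12.0 in KO 1 and KO 3, Cox5b of complex IV had 7.15 and 11.2, Ndufv1 had 9.28, 8.26 and 11.1, Cox6a1 had 10.9, 7.23 and 10.3, and Ndufs8 was called in KO 2 (10.4) and KO 3 (10.8).

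Histones had 13 of 82, and each of the 13 had a region within 500 bases of a start. The count was 7 without KO 1, 10 without KO 2, 6 without KO 3 and 6 when fold enrichment had to reach 4. The median span of the 82 genes was 0.505 kb. A summit inside a gene that short lies near its start by construction, so the position says nothing particular of histones. Macroh2a1, a histone variant, had 9.03, 8.18 and 9.84, H1f0, a linker histone, had 6.52, 9.41 and 7.17, and H3c14 had 9.18, 5.44 and 8.15. H3c13 had 7.70, 2.68 and 9.06, and H2ac10 was called in KO 1 (10.3) and KO 2 (3.86). Histone and ribosomal protein genes share reads with near-identical copies, so which copy carried a peak is uncertain.

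Translation factors had 11 of 74 (7 without KO 1 and 7 without KO 3). Gspt1, a translation termination factor, had 30.1, 8.20 and 24.1 in KO 1, KO 2 and KO 3, with summits 161, 171 and 165 bases after its start. Eif2b2, of the guanine exchange factor for eIF2, had 13.2, 10.2 and 17.4 at 198, 207 and 202 bases. Both had their summits within 10 bases of each other in every list. Eif3a, a scaffold subunit of eIF3, had 9.52, 15.7 and 6.55, far from the start. Eif4h had 8.78 in KO 2 and 7.75 in KO 3, and Pabpc1, the cytoplasmic poly(A)-binding protein, 8.22 in KO 1 and 7.03 in KO 3.

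Heat shock and J-domain chaperones had 12 of 86 (7 without KO 1), led by Dnajc3. Hspbp1, an exchange factor of HSP70, had 10.5, 21.7 and 10.8, with KO 2 the highest. Dnajb5 had 7.02, 7.13 and 11.4. Cct7, a chaperonin subunit, had 8.66 in KO 2 and 8.43 in KO 3, and Dnajb11 had 9.76 in KO 1 and 6.70 in KO 3.

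Ubiquitin ligases and deubiquitinases had 14 of 33, and 9, 14 and 9 were counted without KO 1, KO 2 and KO 3. Trip12, a ligase, had 8.73, 18.9 and 13 in KO 1, KO 2 and KO 3, and Herc1, a very large ligase, had 12.0, 26.7 and 6.63. KO 2 was the highest in these and not in the next ones. Ube2b, a conjugating enzyme, had 12.9, 9.35 and 8.44 with summits 203, 204 and 195 bases after its start, and Ubr3 had 13.7, 6.80 and 8.55.

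Control of P-TEFb, the kinase that releases paused RNA polymerase, had 5 of 13 genes, each in all 3 lists. Hexim1, the inhibitor of P-TEFb, had fold enrichment 18.5, 14.9 and 12.8 in KO 1, KO 2 and KO 3. Its summits lay 80, 77 and 76 bases after its start, past the end of the stretch printed above. Rn7sk, the RNA that holds the inhibitor on P-TEFb, had 3.52, 2.76 and 3.63 with pileups of 180, 201 and 184. Mepce, the enzyme that caps that RNA, had 8.17, 3.66 and 8.50, and Aff3, of the super elongation complex family, had 7.30, 15.3 and 6.58. Larp7, Cdk9 and the cyclin genes Ccnt1 and Ccnt2 had no retained region.

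Chromatin regulators had 13 of 36, 6 in all 3 lists, and 8 were counted without KO 1 and 8 without KO 3. After Ctbp1 came Arid2, a SWI/SNF subunit, with 10.0, 9.0 and 12.7. Chd3, a remodeller, had 9.85, 12.4 and 8.80, and Auts2 had 7.15, 12.6 and 10.0. Setd1b, a histone methyltransferase, was called in KO 1 (7.81) and KO 3 (12.8).

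Immediate early genes had 5 of 23, each with a region in all 3 lists. Jund, a subunit of the AP-1 transcription factor, had 12.6, 4.71 and 12.2 in KO 1, KO 2 and KO 3. Its relative Jun had 4.05, 5.30 and 4.15. Autophagy and mTORC1 control had 6 of 22, with Ulk1, the kinase that starts autophagy, at 9.03, 7.42 and 14.7 and summits 179, 184 and 180 bases after its start. Ddit4, an inhibitor of mTORC1 and a member of both groups, had 8.03, 6.46 and 9.81. Akt1s1 (10.8 and 13.2 in KO 1 and KO 3), Deptor (6.51, 15.8 and 7.04) and Rheb (5.31, 3.38 and 3.35) were the others among the first 5 of that group.

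Of 23 genes that write, erase or read m1A and m6A, 3 had a retained region (13%). Virma is given above. Trmt10b, a transfer RNA methyltransferase, had 5.41, 9.41 and 12.0 in KO 1, KO 2 and KO 3, and Alkbh3, an m1A demethylase, was called in KO 2 (8.20) and KO 3 (7.16). None of the 3 lay within 500 bases of a start in the table used, which holds no start for Virma. The m1A writers Trmt6, Trmt61a, Trmt61b and Trmt10c had no retained region. Of 17 genes of the TET and DNA methylation machinery, 3 had one (1 without KO 1 and 1 without KO 3). Dnmt3a, a de novo DNA methyltransferase, was called in KO 1 (8.12) and KO 3 (8.05), and Mbd3, of the NuRD complex, had 11.2, 4.69 and 7.75. The third is on chromosome 18, from which no region is named. Tet1, Tet2 and Tet3 had no retained region.

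Transfer RNA is the best known carrier of m1A, and its genes held 4 of the 2672 retained regions. The transfer RNA genes in the table used were not counted, so the share of them with a region is not known. The 4 regions were each called in all 3 lists. They lay in n-TGtcc1 (10.8, 8.66 and 6.02), n-TEctc8 (10.4, 5.40 and 11.7), n-TGtcc4 (9.01, 9.17 and 8.03) and n-TMcat2 (6.76, 9.81 and 9.63), with pileups of 8 to 30. Mature transfer RNA is shorter than the fragments modelled here, its genes have many copies, and the region of n-TGtcc1 also lies in Fcgr3.

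Of 15 mitochondrially encoded RNAs, 7 had a retained region, 4 of them in all 3 lists. The count was 3, 4 and 6 without KO 1, KO 2 and KO 3, and 1 when fold enrichment had to reach 4. The region of 327 bp in ND1 had fold enrichment 7.05, 6.49 and 4.84, ATP6 had 3.86, 6.44 and 3.17, and ND6 had 4.27, 4.29 and 3.6. ND2 was called in KO 1 (3.71) and KO 2 (7.65) and ND5 in KO 1 (3.40) and KO 2 (5.02). The pileups of ND2 were 43 and 144.

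Small nuclear RNA genes had 10 retained regions, and 9 of these were called in KO 1 and KO 3 and not in KO 2. The exception was Rn7sk. Over all retained regions, 729 of 2672 were called in KO 1 and KO 3 alone. The small nuclear RNA genes in the table used were not counted. A run of 7 lay on chromosome 12, from 54696851 in Gm22513 to 54738556 in Gm22317, and these 2 had fold enrichment 7.44 and 3.70, and 8.26 and 7.93, in KO 1 and KO 3. Rpph1, the RNA of ribonuclease P, was likewise called in KO 1 (3.72) and KO 3 (3.91) alone. Copies of small nuclear RNA share reads, so the placement within the run is uncertain and its 7 regions are not separate observations. Of 1005 microRNA hairpins in the sequence table, which has none on chromosome 18, 5 overlapped a retained region and 0 held a summit. By gene spans, 1 region was placed in a microRNA gene, on chromosome 18.

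Abundant long non-coding RNAs had 8 of 17 genes with a region, and 5 without KO 1, 5 without KO 3 and 5 when fold enrichment had to reach 4. Miat had 8.79, 6.81 and 6.22, Neat1 was called in KO 2 (6.31) and KO 3 (7.69), Snhg14 in KO 1 (7.81) and KO 2 (7.71), Mirg in KO 1 (8.50) and KO 3 (4.97), and the first region of Meg3 in KO 1 (4.98) and KO 2 (8.03). Another of the 5 regions of Meg3 was in all 3 lists (5.39, 6.57 and 4.61). Among the 80 regions in long non-coding RNA genes and no protein-coding gene, the first by mean rank of fold enrichment were 2 called in KO 1 and KO 3 alone, Gm26512 (13.8 and 17.2) and Gm39918 (15.3 and 10.7). 9630028I04Rik had 23.5, 8.18 and 28.6, Gm32200 had 14.4, 16.2 and 9.02, Gm1604a had 11.9, 10.3 and 11.4, and Gm52298 had 13.2, 8.34 and 17.0 with its summit 158, 158 and 157 bases after its start.

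The labelled tissue was set against markers of its cell types, which the files can show only as peaks. Over all protein-coding genes 8.19% had a retained region, and microglial markers were near that share at 8.33%. The lists hold few genes, so a count of 1 says little. Of 12 medium spiny neuron markers 4 had a retained region, in order Pde10a, Gng7, Adcy5 and Ppp1r1b, the last of which encodes DARPP-32. Penk, Tac1, Pdyn, Drd1, Drd2, Adora2a and Rgs9 were among those with none. Oligodendrocyte markers had 4 of 14 (1 at a fold enrichment of at least 4), led by Mobp (14.4, 23.3 and 15.1), astrocyte markers 3 of 12 (again 1), led by Gfap (13.6 and 10.6 in KO 1 and KO 3), and endothelial markers 2 of 9, Flt1 and Bsg (1 without KO 1 and 1 without KO 3). Microglia had 1 of 12 (C1qa, not counted without KO 1 or without KO 2), cortical excitatory neurons 1 of 8 (Slc17a7, a vesicular glutamate transporter, with 4 regions), choroid plexus and ependyma 1 of 6 (0 without KO 1 or KO 2, and under each limit on fold enrichment, q-value or list length), and striatal interneurons 0 of 10. Peaks lay in marker genes of neurons and of glia, and peak calls do not measure how much of each cell type was present.

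The weakest retained regions, by their best significance in any list, lay in Upp2, Abhd2, Rusc2, no gene and Wsb2. Their best −log10 q-values were 2.59, 2.68, 3.39, 3.55 and 3.82, against a calling limit of 0.01 on q. Their fold enrichment ran from 2.92 to 4.73, and each was called in 2 lists.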

How the data were processed

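Per the submitters' processing notes, reads were trimmed and aligned with tools that include cutadapt 2.8 and HISAT2 2.1.0, on GRCm38. MACS2 2.2.6 was run, per the file headers, for every pull-down with its own input as control (q-value limit 0.01), with 1 tag kept per position in the KO libraries and the larger library scaled towards the smaller. The deposited lists give, per peak, pileup (a signal, the tag coverage at the summit), fold enrichment (a ratio), and −log10 p-value and −log10 q-value, all the authors' values. Replicates were not pooled.

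Merging, gene placement and counts were done in Python 3.11.15 with pandas 2.3.3, and merging and gene placement were tested on simulated peaks. Where a region held several peaks of a list, the one of highest fold enrichment was used. Summits in more than 3 genes were left out (0 in retained regions). Gene spans, starts and sequences came from RefSeq tables of GRCm38.p6 that hold no exons. They list a start for 1407 of the 1746 protein-coding genes with a retained region on nuclear chromosomes other than 18. Start measures leave out chromosome 18 and the mitochondrial genome.

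The regions, groups and rules were chosen with earlier results of these data known. Named were the 15 highest regions by mean rank of fold enrichment, the 8 by pileup, the 6 broadest, the 8 genes with most regions, up to 5 genes a group, 5 regions in no gene, 6 in long non-coding RNA genes and no protein-coding gene, 6 at a start and the 5 weakest, off chromosome 18; some items that these rules select are not reported here. Alternatives were a −log10 q of at least 5, fold enrichment of at least 4, other overlap and gene rules, lists of equal length and leaving out each list.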

Additional observations from a re-analysis of the deposited data

How the results depend on the processing

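No paired analysis was possible because no groups were compared and no result comes from a test. With each list left out in turn, the regions called in both remaining lists numbered 1389 to 1831 and their genes 1131 to 1443. The mean share in protein-coding spans ran from 86.1 to 87.4%, and the mean share of summits within 500 bases of a start from 21.8 to 28.3%, lowest without KO 3 and highest without KO 2. Fewer lists make fewer pairs, which lowers the counts by construction. Taking the lowest instead of the highest fold enrichment of several peaks gave median values of 7.74, 7.77 and 7.79 in KO 1, KO 2 and KO 3. The counts of regions, of regions in all 3 lists and of genes stayed within 1.5 times under a −log10 q of at least 5, fold enrichment of at least 4, the stricter overlap and lists of equal length, with 2161 regions at the fewest. Between 22 and 25 of the 25 gene groups lay above the percentage of all protein-coding genes under these settings, the other gene rules and each list left out. Of the 33 gene and cell type lists, 15, 4 and 9 changed their count by over 1.5 times without KO 1, KO 2 and KO 3. A fold enrichment of at least 4 changed 7 of them by that much, a −log10 q of at least 5 changed 1 and lists of equal length 1. The share over all protein-coding genes fell from 8.19% to 4.64%, 5.91% and 5.35% without KO 1, KO 2 and KO 3, so counts fell over genes in general. KO 1 and KO 3 had fewer tags than KO 2, which limits what their lists can show. They shared 729 regions that KO 2 lacked, and the part of tag number in these differences was not tested.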
